A study of Homo sapiens with 12 samples.

Results

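Eph receptors and their ephrin ligands were examined in 12 samples of cultured MCF-10A, an immortalised line of human breast epithelium that does not form tumours. The set was defined by gene symbol, as 10 members of both families: the receptors EPHA1, EPHA2, EPHA4, EPHB2, EPHB3 and EPHB4, and the ligands EFNA1, EFNA5, EFNB1 and EFNB2. A probe set was named for 9 of the 10, out of 17687 named genes on the array. EPHB2 was not analysed here. All samples carried a mutation. Of these, 4 were of a line with HER2 L755S, a change in the kinase domain of that receptor. Another 4 were of a line with PIK3CA E545K, in the catalytic subunit of PI3K, and 4 mixed both lines. The labels do not say whether the 4 samples of a group came from separate cultures. Each mutation was represented by 1 line, so a difference between the lines cannot be told apart from a difference between clones, and no culture of MCF-10A without either mutation was analysed. All received physiologic EGF and no other treatment and were collected after 7 to 14 days. At collection, about 75% of the cells in the mixed cultures carried the HER2 mutation, as measured by digital PCR per the labels.

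Eph proteins are the largest family of receptor tyrosine kinases, and their ligands are themselves bound to the surface of cells, so that signalling needs contact between neighbours. A ephrins are anchored in the membrane by a lipid and bind mainly A receptors, whereas B ephrins span the membrane and bind mainly B receptors. The receptor signals into its own cell (forward), and the ephrin signals back into the cell that carries it (reverse). In epithelia the pair of EphA2 and ephrin-A1 is known for its part in cell adhesion, repulsion and boundaries between unlike cells, and EPHA2 is a known target of the RAS and ERK pathway.

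The results below turn on EPHA2 and EFNA1, whose levels differed most between groups, so the 250 bases before the transcription start of each are shown from RefSeq (GRCh38.p14, 5′ to 3′). The EPHA2 window is chr1:16156070-16156319 on the minus strand, and the EFNA1 window is chr1:155127626-155127875 on the plus strand. Capitals mark a match to GGAATG, a core that TEAD factors bind, on either strand.
EPHA2: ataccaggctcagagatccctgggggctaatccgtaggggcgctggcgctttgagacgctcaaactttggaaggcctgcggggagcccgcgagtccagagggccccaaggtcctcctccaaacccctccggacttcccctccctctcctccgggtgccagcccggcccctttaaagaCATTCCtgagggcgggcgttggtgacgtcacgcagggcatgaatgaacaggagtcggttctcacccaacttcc
EFNA1: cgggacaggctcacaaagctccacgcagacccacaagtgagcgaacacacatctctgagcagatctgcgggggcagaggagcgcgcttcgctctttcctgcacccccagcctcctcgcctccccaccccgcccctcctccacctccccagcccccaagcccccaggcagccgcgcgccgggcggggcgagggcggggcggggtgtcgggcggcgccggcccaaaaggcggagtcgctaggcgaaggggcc
The match in EPHA2 begins 73 bases before the start and lies on the opposite strand. Windows of this length hold GGAATG in 11.9% of the 35116 promoters in the table. The AP-1 motif TGANTCA, the FOXO motif TGTTTAC and the E-box CACGTG, searched on both strands, occur in 6.57%, 2.98% and 6.34% of promoters. The match overlaps no other motif searched. None of these 3 was in any of the 12 windows of the 10 members, which says only that those letters are not in these windows. GC content was 63.2% in the EPHA2 window and 73.2% in that of EFNA1.

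The values were deposited log2 signals, 1 probe set for each member. Array medians ran from 6.41 to 6.49. The 95th percentile of the negative controls was 6.73 to 7.12 in the HER2-mutant line, 6.32 to 6.39 in the PIK3CA-mutant line and 6.37 to 6.66 in the co-culture. A gene that exceeded this percentile on no array of a group is called not above background there. Markers of mammary basal epithelium (6 of 8 listed with a named probe set) were above background in all groups, with KRT5 between 17.11 and 17.48. Of 6 luminal markers 4 were, and ESR1 and FOXA1 were not. The log2 of the summed luminal signal was 16.39 to 16.57 in the HER2-mutant line. It was 15.42 to 15.60 in the PIK3CA-mutant line and 15.66 to 15.85 in the co-culture. That of the basal signal was 17.58 to 17.68, 17.97 to 18.05 and 17.60 to 17.65 in the same order. Such sums weigh the brightest genes most, and single markers were split. Of 5 luminal markers tested between the lines (limma adjusted p under 0.05), 3 had more signal with the HER2 mutation and 2 had less. The 2 were KRT18, at means of 10.86 and 13.18, and FOXA1, within background. Of 6 basal markers 2 had more, 3 had less and 1 was not called. In the co-culture 1 basal marker, KRT5, was called below both lines. None of the listed endothelial or adipocyte markers was above background. Of 5 fibroblast markers LUM and PDGFRB were not above background, while DCN was between 10.54 and 10.96 in the HER2-mutant line against 6.86 to 7.57 and 7.65 to 8.49 in the PIK3CA-mutant line and the co-culture. The log2 of the summed fibroblast signal, which includes DCN, was 10.92 to 11.29, 8.91 to 9.41 and 9.56 to 9.75 in the same order. Of 3 fibroblast markers tested between the lines, 1 passed a limma adjusted p of 0.05, higher in the HER2-mutant line, and 2 did not. Of all genes 59.5% passed there. Of 5 blood markers 0 were above background in the HER2-mutant line and 2, CD79A and CD14, in the PIK3CA-mutant line and the co-culture, with log2 sums of 7.56 to 8.03, 8.43 to 8.69 and 8.51 to 8.84. PTPRC, the defining leukocyte marker, was not above background in any group. The part of these markers in the results was not tested.

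The receptors EPHA2 and EPHA1 and the ligand EFNB1 were higher in the PIK3CA-mutant line, as was EPHA4 within background. EFNA1 and EFNA5 were higher in the HER2-mutant line, whereas EPHB3, EPHB4 and EFNB2 did not pass the test between any groups. In the co-culture EFNA1 exceeded both lines on every array. By limma (adjusted p under 0.05 over 12758 genes), 2 of the 9 members had more signal and 4 had less in the HER2-mutant than in the PIK3CA-mutant line, where 59.5% of all genes were called, 30% higher and 29.5% lower. Arrays of the lines did not overlap for 6 of the 9, as for 53.0% of all genes. Against the HER2-mutant line, 5 members of the co-culture were higher and 1 was lower, with 51.0% of all genes called (24.9% higher, 26.0% lower), and 5 of the 9 did not overlap, as for 44.4% of genes. Against the PIK3CA-mutant line 2 were higher and 2 lower, with 25.7% of all genes called (11.1% higher, 14.6% lower), and 4 of the 9 did not overlap, as for 28.3% of genes. Read against these shares, counts over 9 genes say little, and the results are given gene by gene. The median difference over members was -0.20, 0.51 and -0.09 on the log2 scale, against 0.05, -0.05 and -0.02 over all genes. Over 9 members each median is the value of 1 gene, EFNB2, EPHA4 and EPHB3 in that order. EPHA4 was not above background in any group, so the 0.51 is not a shift of the family. All 3 comparisons share groups, so their values are not independent of each other. In bulk RNA of a mixed culture, fewer cells of a line and less RNA per cell cannot be told apart.

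**Figure D1:**
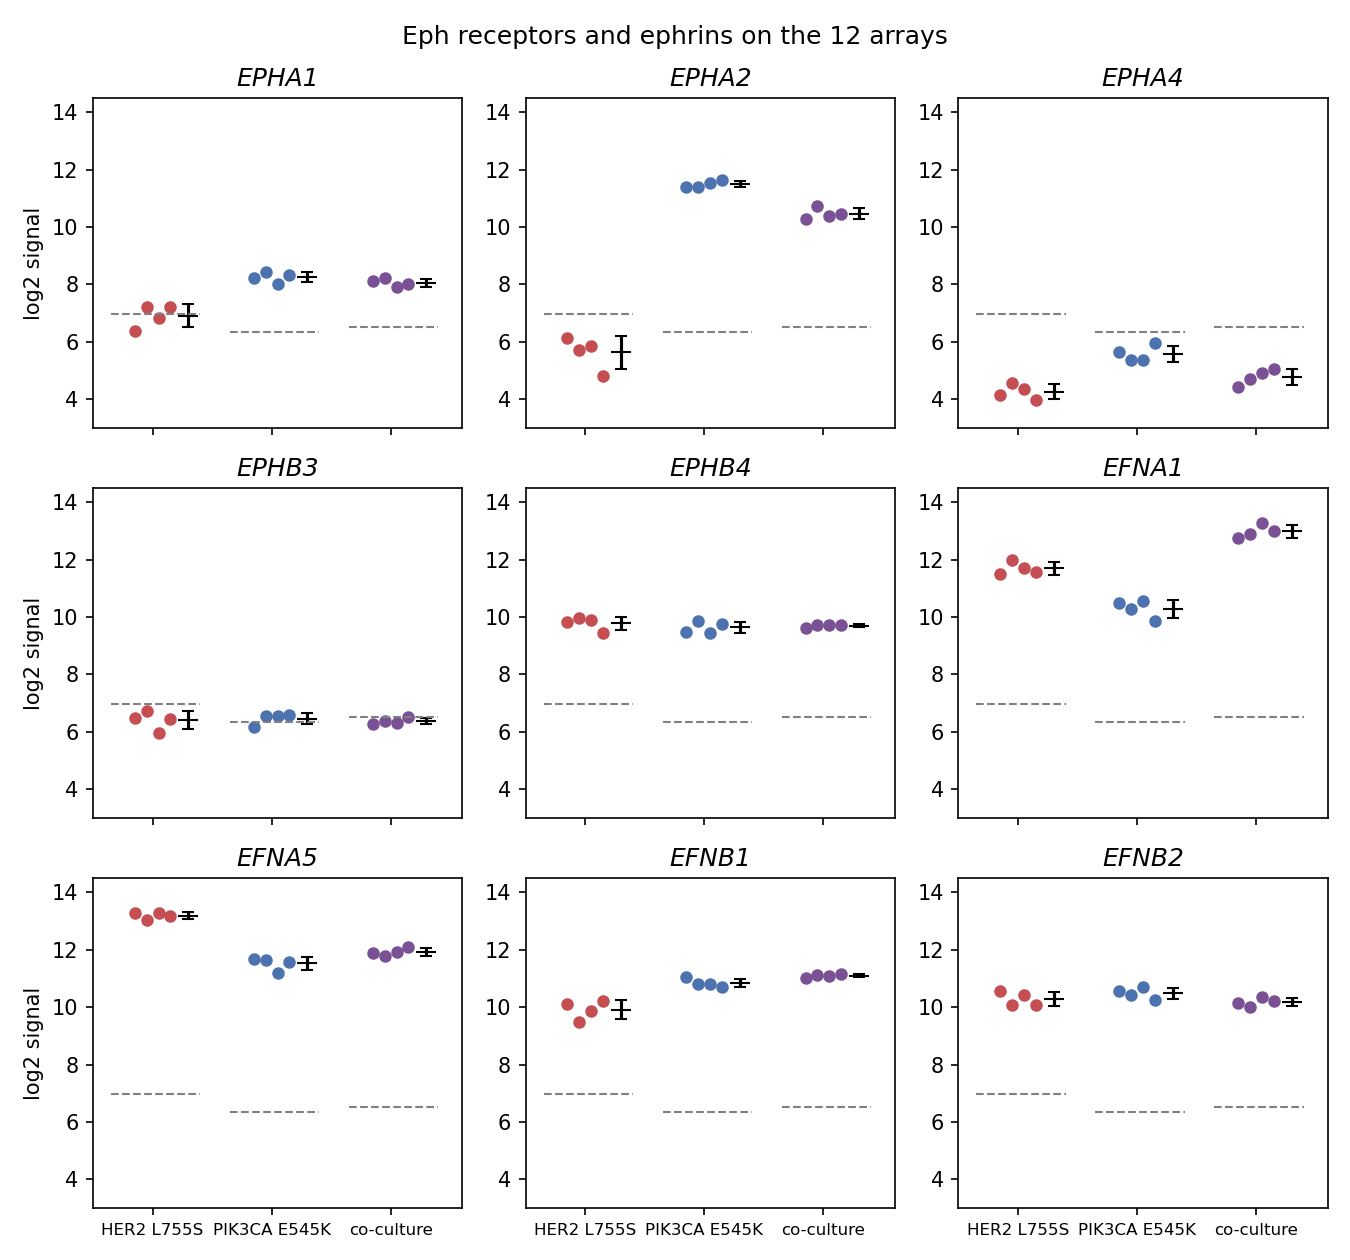
Log2 signal of each of the 9 measured members on the 12 arrays, by culture group. Points are arrays, the black bar gives mean ± SD (n = 4), and the dashed line is the group's mean of the 95th percentile of the negative controls. EPHA2 lies below that line in the HER2-mutant line and near 11.50 in the PIK3CA-mutant line, and EFNA1 is highest in the co-culture.

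EPHA2, an A receptor, had the largest difference of all members. It read 6.14, 5.71, 5.87 and 4.79 in the HER2-mutant line, 11.40, 11.41, 11.54 and 11.63 in the PIK3CA-mutant line, and 10.27, 10.75, 10.39 and 10.46 in the co-culture. The HER2-mutant arrays were not above background, and no array of 1 group overlapped those of another. Between the lines EPHA2 differed by -5.87 ± 0.19 (SE, limma adjusted p 2.36e-17). With the dim line set to its background, it was at least 23.1-fold lower in the HER2-mutant line. The co-culture was higher than the HER2-mutant line by 4.84 ± 0.19 (limma adjusted p 1.36e-15), at least 11.3-fold, and differed from the PIK3CA-mutant line by -1.03 ± 0.19 (limma adjusted p 0.000347). On the linear scale the co-culture signal was 49.1% of that in the PIK3CA-mutant line.

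EPHA1, a receptor of epithelial cells, followed EPHA2 at a smaller scale. It read 6.37, 7.21, 6.81 and 7.21 in the HER2-mutant line, 8.23, 8.44, 8.02 and 8.32 in the PIK3CA-mutant line, and 8.11, 8.23, 7.90 and 8.0 in the co-culture. All HER2-mutant arrays were below all others, and the other 2 groups overlapped. Of the HER2-mutant arrays, 3 of 4 were above background, but all lay near its percentiles of 6.73 to 7.12. Differences from that line are therefore limited by background. It differed by -1.35 ± 0.17 between the lines (limma adjusted p 4.19e-07) and was higher by 1.16 ± 0.17 in the co-culture than on the HER2-mutant arrays (5.56e-06). Against the PIK3CA-mutant line the difference was -0.19, with a 95% interval from -0.55 to 0.17.

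EPHA4, a receptor that binds A and B ephrins, was not above background in any group, so no fold is given. It lay between 3.98 and 4.57 in the HER2-mutant line, between 5.35 and 5.95 in the PIK3CA-mutant line and between 4.42 and 5.04 in the co-culture. The PIK3CA-mutant arrays were above all others, while the HER2-mutant line and the co-culture overlapped. The differences were -1.32 ± 0.18 between the lines (limma adjusted p 1.37e-06) and -0.80 ± 0.18 for the co-culture against the PIK3CA-mutant line (0.0020). Against the HER2-mutant line it was 0.51 ± 0.18 (0.0216), a call lost when HER2-mutant replicate 1 (0.0515) or 4 (0.0715) was left out, or co-culture replicate 3 (0.0627) or 4 (0.077), in a range from 0.00887 to 0.077.

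The B receptors EPHB3 and EPHB4 did not pass the test in any comparison. EPHB4, the receptor of EFNB2, lay between 9.44 and 9.96 in the HER2-mutant line, between 9.46 and 9.87 in the PIK3CA-mutant line and between 9.61 and 9.74 in the co-culture. All groups overlapped. The difference between the lines was 0.14, with a 95% interval from -0.13 to 0.40, which leaves out changes as large as that of EPHA1. EPHB3, another receptor of B ephrins, was above background on 3 PIK3CA-mutant arrays and on no other, with values from 5.96 to 6.73 over all groups. Its difference between the lines was -0.05, with an interval from -0.40 to 0.30.

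Of the 8 other receptors of the family, 6 (EPHA3, EPHA5, EPHA6, EPHA7, EPHA8 and EPHA10) were too dim to be tested, and none exceeded background on any array. Their signals ran from 2.76 for EPHA8 to 4.92 for EPHA7. EPHB1 and EPHB6 were tested but not above background. EPHB6, which lacks kinase activity, was higher by 0.53 ± 0.17 in the HER2-mutant line (limma adjusted p 0.0103), a call lost without HER2-mutant replicate 3 (0.0520, in a range from 0.00651 to 0.0520).

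EFNA1, the ligand that engages EphA2, was the member that the co-culture set apart from both lines. It read 11.49, 12.01, 11.72 and 11.57 in the HER2-mutant line, 10.51, 10.27, 10.55 and 9.87 in the PIK3CA-mutant line, and 12.76, 12.91, 13.28 and 12.99 in the co-culture. The groups did not overlap, and their order was co-culture, HER2-mutant line, PIK3CA-mutant line. EFNA1 was higher by 1.40 ± 0.14 in the HER2-mutant than in the PIK3CA-mutant line (SE, limma adjusted p 9.26e-09). The co-culture was higher than the HER2-mutant line by 1.29 ± 0.14 (5.72e-08), or 2.44-fold, and higher than the PIK3CA-mutant line by 2.69 ± 0.14 (4.32e-12), or 6.44-fold. EFNA1 and EPHA2 thus stood in opposite order between the lines, and both were far above background in the co-culture.

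EFNA5, an A ephrin that can also bind the B receptor EphB2, was highest in the HER2-mutant line. It read 13.27, 13.04, 13.29 and 13.17 there, 11.69, 11.64, 11.20 and 11.58 in the PIK3CA-mutant line, and 11.88, 11.79, 11.94 and 12.10 in the co-culture. No groups overlapped, and the co-culture lay close to the PIK3CA-mutant line. EFNA5 was higher by 1.67 ± 0.10 in the HER2-mutant than in the PIK3CA-mutant line (limma adjusted p 2.54e-12), or 3.17-fold. In the co-culture it differed by -1.27 ± 0.10 from the HER2-mutant line (5.66e-10) and by 0.40 ± 0.10 from the PIK3CA-mutant line (0.00602).

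Of the other A ephrins, only EFNA3 was above background. It lay between 8.89 and 9.20 in the HER2-mutant line, 9.25 and 9.79 in the PIK3CA-mutant line and 9.03 and 9.62 in the co-culture, and differed by -0.45 ± 0.14 between the lines (limma adjusted p 0.00899). EFNA2 and EFNA4 were not above background in any group. EFNA4 was called higher by 0.60 ± 0.18 in the co-culture than on the PIK3CA-mutant arrays (0.0159), a call lost when PIK3CA-mutant replicate 3 (0.0518) was left out, or co-culture replicate 2 (0.0513) or 4 (0.0523), in a range from 0.00356 to 0.0523. Between the lines its call (0.42 ± 0.18, 0.0492) was lost in 13 of 19 alternatives. Of the fits that leave out an array, it held only without HER2-mutant replicate 1 or 2 or co-culture replicate 1 (range 0.0207 to 0.217).

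The B ephrins were divided. EFNB1, a transmembrane ligand with a known part in tissue boundaries, read 10.11, 9.47, 9.85 and 10.22 in the HER2-mutant line, 11.05, 10.82, 10.83 and 10.71 in the PIK3CA-mutant line, and 11.03, 11.12, 11.09 and 11.17 in the co-culture. The HER2-mutant arrays were below all others, and the other 2 groups overlapped. EFNB1 differed by -0.94 ± 0.13 between the lines (limma adjusted p 1.4e-06) and was higher by 1.19 ± 0.13 in the co-culture than on the HER2-mutant arrays (5.95e-08), or 2.28-fold. Against the PIK3CA-mutant line the difference was 0.25, with an interval from -0.02 to 0.52 (0.169). EFNB2, the ligand of EPHB4, lay between 10.08 and 10.55, 10.25 and 10.71, and 9.99 and 10.35 in the HER2-mutant line, the PIK3CA-mutant line and the co-culture, all overlapping. Its largest difference was -0.31 in the co-culture against the PIK3CA-mutant line, with an interval from -0.58 to -0.05 and a limma adjusted p of 0.0807. That p fell to 0.0430 without PIK3CA-mutant replicate 4. EFNB3, outside the list of members, was higher by 1.28 ± 0.17 in the HER2-mutant than in the PIK3CA-mutant line (7.17e-07), and the co-culture at 7.03 ± 0.08 lay between 7.59 ± 0.16 and 6.31 ± 0.37 (SD, n = 4 each). In the PIK3CA-mutant line 1 of 4 arrays was above background.

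**Figure D2:**
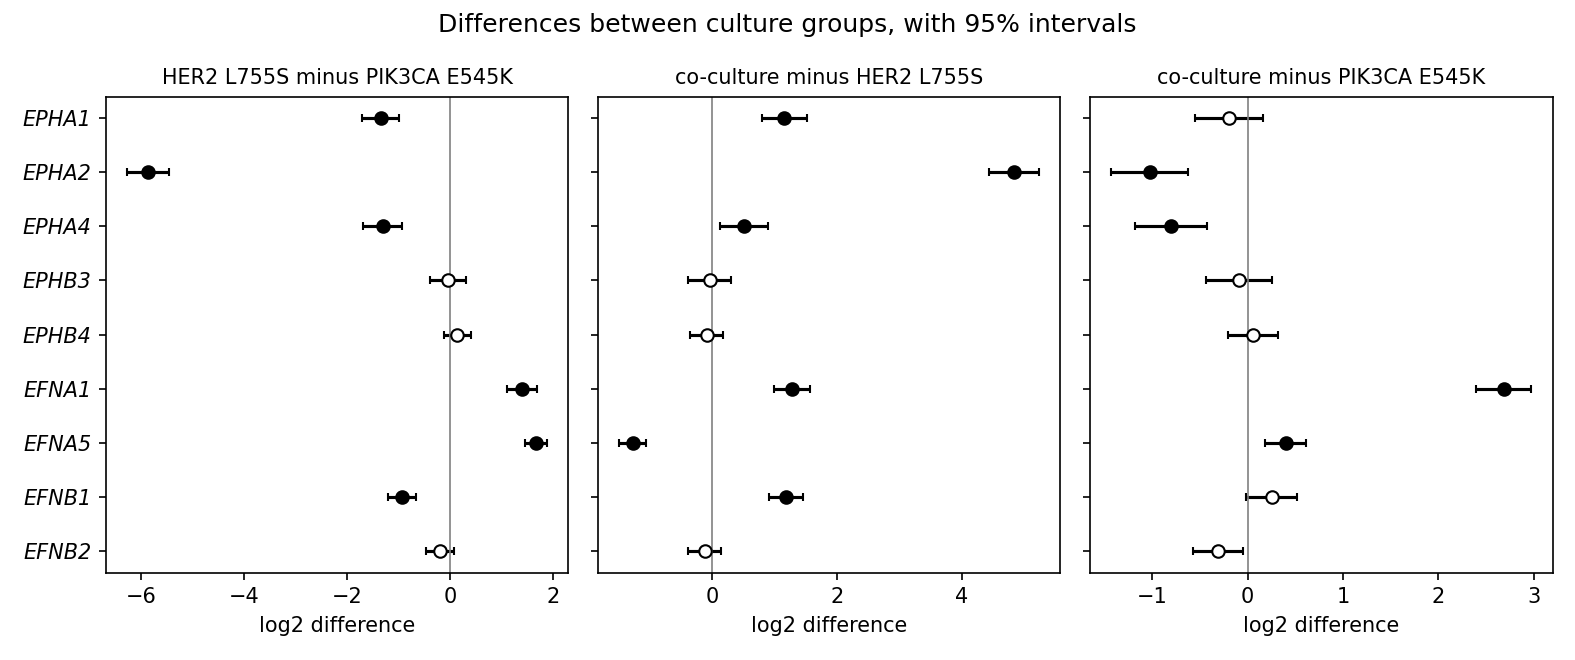
Log2 differences of the 9 measured members in the 3 comparisons, with 95% intervals from limma. Filled points passed an adjusted p of 0.05 over all genes. EPHA2 differs most between the lines, by -5.87, EFNA1 is to the right of 0 in all 3 panels, and EPHB3, EPHB4 and EFNB2 are open in each.

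The co-culture was then set against a blend of the lines by cell number, 75% of the linear signal of the HER2-mutant line and 25% of that of the PIK3CA-mutant line. Such a blend assumes equal RNA per cell. Above the blend were 4 members, EFNA1 by 1.53 ± 0.13, EPHA2 by 0.90 ± 0.19, EFNB1 by 0.89 ± 0.11 and EPHA1 by 0.69 ± 0.15 (limma adjusted p 4.17e-09, 0.000552, 1.24e-06 and 0.00074). The call of EPHA2 was lost against a blend of 65% (0.44, limma adjusted p 0.0794). Below the 75% blend was 1 member, EFNA5 by -0.995 ± 0.10 (4.03e-08). Of all genes 40.8% were called, 18.5% above and 22.3% below. The median difference was 0.06 over members, the value of EPHA4 within background, and -0.05 over all genes.

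The signals themselves gave another share. Over genes that differed between the lines, the co-culture held 30.6% of HER2-mutant signal by the median. It was the mean of medians from 2 sets of replicates, 30.5% over 2899 genes and 30.7% over 2714. Single genes varied widely around it, with quartiles of 11.7% and 52.1% in the first set. Against a blend at that share, an alternative added after the data were seen, EPHA2 was at -0.51 (limma adjusted p 0.0705) and EPHA1 at 0.11 (0.727). Both had lost their call, and EPHA2 had changed sign. EFNA1 was above by 2.10 (1.73e-11) and EFNB1 by 0.48 (0.0059), EFNA5 below by -0.34 (0.0108), and EPHA4 below by -0.51 (0.0384). EPHA4 was not above background in any group. The share was taken from these same co-culture arrays and then held fixed, so its own error is not in these p-values. Of all genes 18.8% were called there.

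A blend of the linear signals in any proportion cannot lie above both lines, provided that signals are comparable between arrays. The normalization is not given, and why a gene lay outside both lines was not tested. EFNA1 was the 1 member called above both. The smaller of its differences was 1.29 ± 0.14, with a limma adjusted p of 5.42e-06 for being outside both lines. Over 19 alternatives the difference was 1.19 to 1.39 and the adjusted p 1.16e-06 to 0.000884. Of all genes 1.85% were called, 1.00% above both lines and 0.847% below both, 128 and 108 genes. By size EFNA1 ranked 16 among the 128. By limma 0 members were called below both, also at an unadjusted p under 0.05. EFNB1 was above both lines by 0.25 without passing (0.917).

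**Figure D3:**
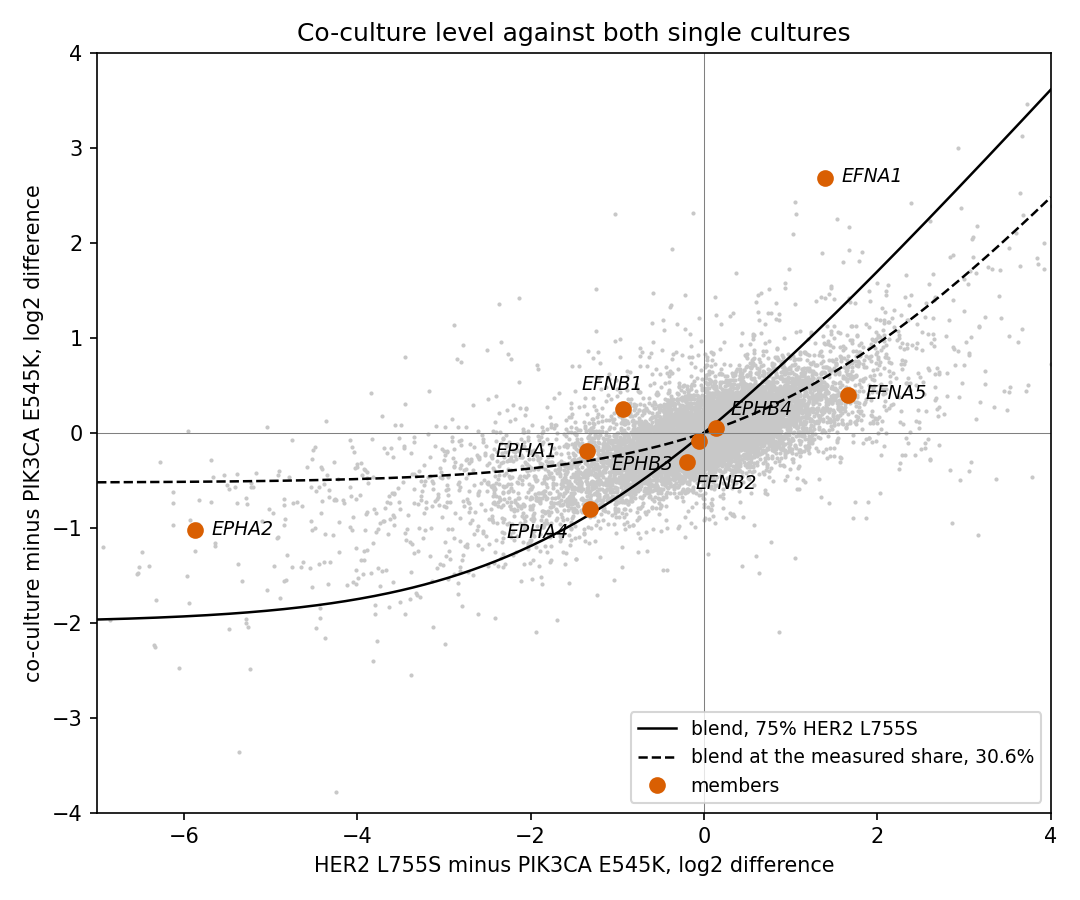
Co-culture minus PIK3CA-mutant line against HER2-mutant minus PIK3CA-mutant line, log2 differences of group means. Grey points are the 12758 genes tested, of which 42 fall outside the axes, orange points are the 9 measured members, and the curves are blends of the linear signals at 75% and 30.6% of the HER2-mutant line. Both axes share the PIK3CA-mutant mean. EFNA1 lies above both blend curves at 2.69, EPHA2 between them at -1.03, and EFNA5 below both at 0.40.

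In RefSeq order EFNA1 follows EFNA4 and EFNA3 and precedes SLC50A1, a sugar transporter gene, and DPM3, a subunit of a mannosyltransferase. These neighbours were looked at after the pattern of EFNA1 was seen. For each of the 4 the limma adjusted p for being outside both lines was 1. SLC50A1, the nearest measured gene after EFNA1, was at 8.28, 9.47 and 9.17 in the HER2-mutant line, the PIK3CA-mutant line and the co-culture, so that it differed by -1.19 ± 0.13 between the lines (limma adjusted p 2.49e-08), opposite to EFNA1. DPM3 was at 7.95, 8.01 and 8.25 and did not pass in any comparison. EFNA4, at 6.13, 5.71 and 6.31, ranked the groups as EFNA1 did but was not above background in any of them. EFNA3 was at 9.03, 9.48 and 9.25.

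Genes that carry the signal inside the cell changed in both directions. Of 29 forward signalling effectors tested (36 listed), 8 had more signal and 13 had less in the HER2-mutant than in the PIK3CA-mutant line, with a median of -0.20, where 59.5% of all genes were called. The adaptor gene NCK1 was higher by 2.26 ± 0.11 (limma adjusted p 1.25e-14) and the signalling gene VAV3 by 1.91 ± 0.14 (6.85e-11). The kinase gene ABL2 differed by -1.57 ± 0.12 (1.03e-10). TIAM1, also called lower, had means of 3.98 and 5.85 and was above background on 0 HER2-mutant arrays and 1 PIK3CA-mutant array, so no fold is given. Against the HER2-mutant line the co-culture had 9 higher and 8 lower, beside 51.0% of all genes called, ABL2 by 1.58 and the SRC family kinase gene LYN by 1.35, against NCK1 by -1.36 and VAV3 by -1.32. Against the PIK3CA-mutant line 3 were higher, among them NCK1 by 0.91 and VAV3 by 0.60, and 5 lower, among them the adaptor gene GRB10 by -0.60, beside 25.7% of all genes called. NGEF, which encodes ephexin, was also called lower, at means of 4.96 and 5.65, but was not above background in any group. By limma 0 were called outside both lines, against 1 (ABL1) at an unadjusted p under 0.05.

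Of 7 partners of B ephrins tested (9 listed), the HER2-mutant line had 3 higher and 1 lower, beside 59.5% of all genes called. SDCBP, the gene of syntenin, which binds the tail of B ephrins, was higher by 1.38 ± 0.07 (limma adjusted p 8.07e-14), and DVL2 by 0.82. RGS3, called lower, had means of 6.07 and 6.76 and was not above background in the HER2-mutant line, so no fold is given. Against that line the co-culture had 3 lower and 0 higher, beside 51.0% of all genes called, SDCBP by -1.13 and AFDN, the gene of afadin, by -0.79. At an unadjusted limma p under 0.05 the count of those higher was 1, RGS3. Against the PIK3CA-mutant line 2 were higher and 1 lower, beside 25.7% of all genes called, with SDCBP at 0.26 ± 0.07 (0.0101), a call lost without a trend of the spread with signal (0.0710, in a range from 0.00352 to 0.0710). The other, DVL2 at 0.29 (limma adjusted p 0.0414), lost its call in 9 of 20 alternatives, with the highest p of 0.157 without PIK3CA-mutant replicate 1.

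All 8 shedding and turnover genes tested were called between the lines, beside 59.5% of all genes, with 3 above and 5 below the PIK3CA-mutant line in HER2-mutant cells. MMP14, a membrane protease that cuts EphA2, was higher by 0.99 ± 0.11 (limma adjusted p 4.35e-08) and CBLB, a ubiquitin ligase, by 0.61. PTPN1, a tyrosine phosphatase, differed by -1.29 ± 0.08 (2.51e-12). ADAM12, a protease, was called lower at means of 3.56 and 4.73, not above background in any group. The list was chosen with earlier results of these data known, so its counts are not a test of the set. The arrays of the 2 lines did not overlap for any of the 8 genes, as for 53.0% of all genes. In the co-culture 4 were higher than in the HER2-mutant line, CBL by 0.64 and the ephrin sheddase gene ADAM10 by 0.55, and 3 lower, MMP14 by -0.62, beside 51.0% of all genes called. Against the PIK3CA-mutant line 1 was higher and 3 lower, beside 25.7% of all genes called. PTPN1 differed by -0.77, and ADAM12, called lower, was at 3.97 and 4.73, within background.

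**Figure D4:**
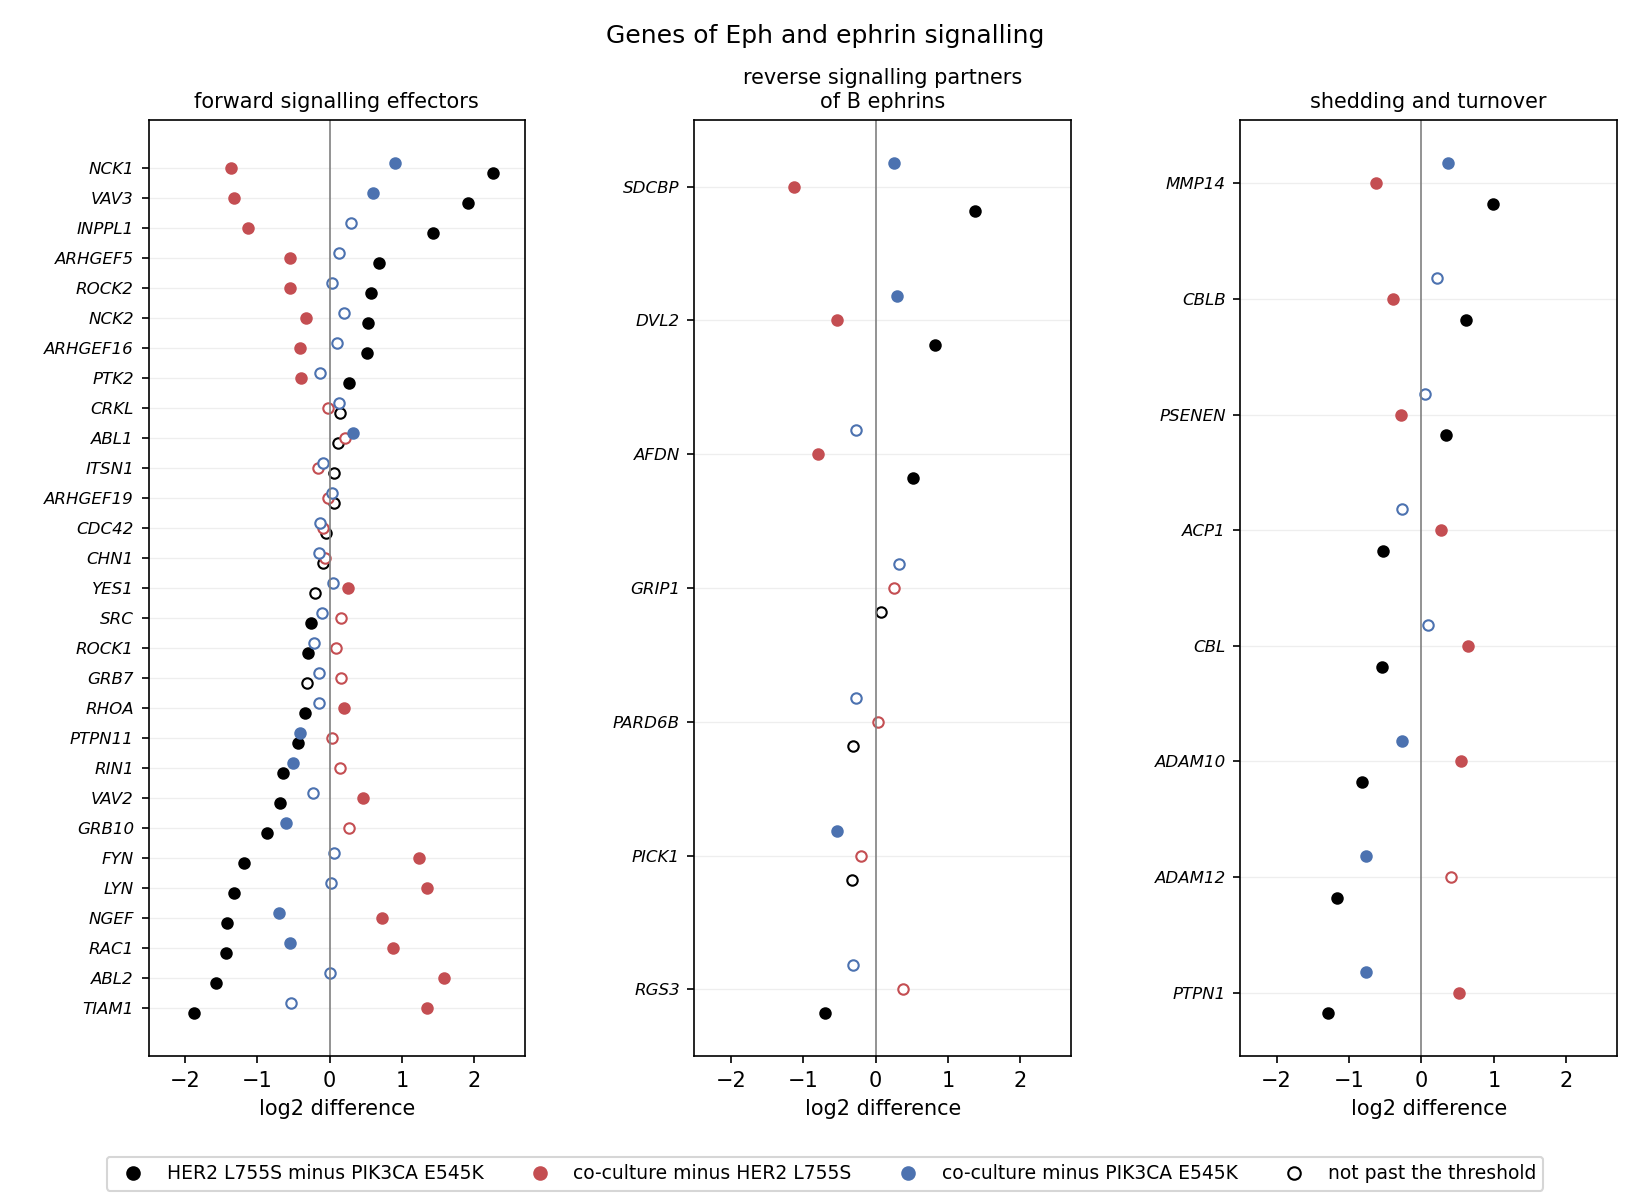
Log2 differences of the tested genes of 3 lists in the 3 comparisons, ordered within a list by the difference between the lines. Filled points passed a limma adjusted p of 0.05 over all genes. Between the lines NCK1 is at 2.26 and ABL2 at -1.57. The points of TIAM1, NGEF, ADAM12 and RGS3 rest on signals within background in at least 1 group.

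The genes most like a member were found by the distance of their log2 signals over the 12 arrays, after centring on the gene's mean. For EPHA2 these were KIF20A (distance 1.09), a mitotic kinesin gene, CXCL8 (1.19), a chemokine gene, and MKI67 (1.19), which marks dividing cells. MKI67 was at 6.98, 12.64 and 12.17 in the HER2-mutant line, the PIK3CA-mutant line and the co-culture. For EFNA5 they were EHMT2 (0.28), DIPK2A (0.46) and TCEAL4 (0.46), and for EFNA1, added after its pattern was seen, PID1 (1.05), CDA (1.07) and S100A9 (1.15). S100A9 was at 11.69, 10.67 and 12.76 in the same order. The mean of KIF20A in the HER2-mutant line (4.91) and all means of CDA (4.23, 3.17 and 5.47) lay under the background percentile of every array. In the HER2-mutant line that percentile was 6.73 to 7.12. The mean of CXCL8 there (6.65) lay under it on every array of that line, and that of MKI67 (6.98) lay within its range. All 3 matches to EPHA2 thus rest on HER2-mutant signals at or near background. These distances describe 3 groups of 4 arrays, and many genes share such an order.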

How the data were processed

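RNA of 12 samples was labelled with the GeneChip WT PLUS kit and hybridised to 1 array each. The authors deposited log2 signals for 24351 probe sets. The submitters' processing notes name the Transcriptome Analysis Console, and the background correction, summarization and normalization are not given in the sources used here. Gene symbols came from the platform annotation, which named 17709 probe sets with 1 symbol. The brightest was kept where a gene had several (20 genes). Genes above the 30th percentile of named probe sets on at least 4 arrays were tested, 12758 in all. All 12 arrays were fitted in limma 3.58.1 (R 4.3.3) with a trend of the spread with signal and Benjamini-Hochberg adjustment, and the code was tested on simulated data. The blend test used a delta-method error, and the test outside both lines took the larger p. Background came from 612 negative control probe sets. Every member was described, and list genes were named by size among those called. The members and lists were chosen with earlier results of these data known. The labels call the samples quadruplicates without saying that cultures were separate, so p-values measure the spread between these samples, which may be technical. No 2 arrays held identical values. The number of arrays limits the precision. Alternatives were other filters, normalization, variance models, blends, a replicate block and leaving out each array.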

Additional observations from a re-analysis of the deposited data

Results flagged for a closer look

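Within groups of 4 arrays, 5 values among the Eph and ephrin genes stood far from the other 3. Chance gives about 1 such value in 20 groups, and 9 members and 12 other Eph and ephrin genes were each searched in 3 groups. Several of the 5 would thus arise by chance. EPHB3 read 6.18 on PIK3CA-mutant replicate 1 against 6.53 to 6.58 on the others. EPHB4 read 9.61 on co-culture replicate 1 against 9.72 to 9.74. EPHA7 read 4.92 on PIK3CA-mutant replicate 3 against 4.13 to 4.18, all not above background. EPHB6 read 6.57 on HER2-mutant replicate 3 against 6.02 to 6.06, and 5.91 on PIK3CA-mutant replicate 2 against 5.53 to 5.58, also not above background.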

How the results depend on the processing

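Among the values for counts and shares of genes called, 297 of those under other settings stayed within 1.5 times and 6 did not. With the blend at the measured share of 30.6%, 2 members were above and 2 below, and 18.8% of genes were called. There EPHA2 reversed to -0.51, EPHA4 to -0.51 and EPHB4 to 0.012, and at a 65% blend EPHA4 reversed to -0.091. A filter at the array median left 1 member lower in the co-culture than on the PIK3CA-mutant arrays, since EPHA4 was no longer tested. Outside both lines 1.14% of genes were called without a trend of the spread, and 1.21% to 1.81% when an array was left out, lowest without co-culture replicate 3. Leaving out an array gave -0.030 to 0.18 for EPHA4 and -0.16 to 0.031 for EPHB3 against the blend. It gave -0.18 to 0.074 for EPHB3 against the HER2-mutant line, -0.0069 to 0.13 for EPHB4 against the PIK3CA-mutant line, and -0.16 to 0.095 for EPHB3 between the lines, none of them called. The cause was not tested. After group means were removed, same-numbered arrays correlated at -0.03 to 0.06, and 2 of 12 matched best by number. No pairing by replicate number was detected, though such correlations cannot show that there was none. With the replicate block 59.6%, 51.0%, 26.1%, 41.2% and 1.90% of genes were called in the order of the report, and EFNB2 passed against the PIK3CA-mutant line (limma adjusted p 0.0401), which made 3 members lower there. No other member count changed under it. Signals within background limit the differences of EPHA2, TIAM1 and RGS3 in the HER2-mutant line, of TIAM1 in the co-culture and of EPHB3 in both. They limit those of EPHA4, EPHB6, EFNA4, NGEF and ADAM12 in all groups. Signals at or near background also limit those of EPHA1 in the HER2-mutant line and EFNB3 in the PIK3CA-mutant line.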
